A study of Rattus norvegicus with 40 samples.

Results

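Nqo1, its regulator NRF2 (gene Nfe2l2), the NRF2 inhibitor Keap1 and the antioxidant genes Gclc, Gclm, Hmox1, Txnrd1 and Ephx1 were followed in the livers of rats given the dioxin TCDD. The members are all probe sets on the Affymetrix RAE230A array whose only platform gene symbol is 1 of these 8: all 8 genes, of 10411 with such a probe set, were measured, by 11 of the 15866 probe sets tested, with 2 probe sets each for Keap1, Gclc and Txnrd1. No probe set was filtered out for a low signal. Males of 10 to 12 weeks received a single gavage of 100 µg/kg TCDD, or of corn oil, and 4 rats per group were profiled 19 h later on 1 array each. The dioxin-resistant line LnA and strain H/W (Han/Wistar) have a dioxin receptor (AHR) that lacks part of its transactivation domain, and the dioxin-sensitive line LnC and strain L-E (Long-Evans) have the wild-type AHR. LnA and LnC were bred from H/W and L-E crosses, so neither is a copy of a parental strain with only the receptor exchanged. TCDD groups of H/W and L-E, also of 4 rats each, were profiled at 3 h too. No corn oil arrays of that time were analysed here, and an entire treatment group shared 1 cage, so cage and group cannot be told apart.

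NRF2 is a transcription factor that KEAP1 normally holds in the cytoplasm and hands to an ubiquitin ligase for destruction. Oxidants and electrophiles modify KEAP1, whereupon NRF2 accumulates, pairs with a small MAF protein and binds antioxidant response elements of genes for glutathione synthesis, quinone reduction, haem breakdown and thioredoxin recycling. The AHR, which TCDD binds, pairs with ARNT at dioxin response elements. In rodents Nqo1 is known to respond to both pathways, and in mice Nfe2l2 itself has been described as an AHR target.

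Promoter windows from RefSeq (GRCr8; 250 bases before to 50 bases after a gene start, 300 in all) were matched by symbol for 7 of the 8 genes; Hmox1 was not matched. The starts of the Nqo1 and Gclm windows are the outer ends of these genes as annotated, whereas that of the Nfe2l2 window is an internal start, at base 81028999, inside the annotated gene. Those of Nqo1 and Nfe2l2, the members that rose with TCDD, and of Gclm, which did not, are printed 5′ to 3′ on the strand of the gene. Capitals mark every match, on either strand, to GCGTG, the core of the dioxin response element, or to TGACNNNGC, the core of the antioxidant response element.
Nqo1 (chr19:52220218-52220517, minus strand): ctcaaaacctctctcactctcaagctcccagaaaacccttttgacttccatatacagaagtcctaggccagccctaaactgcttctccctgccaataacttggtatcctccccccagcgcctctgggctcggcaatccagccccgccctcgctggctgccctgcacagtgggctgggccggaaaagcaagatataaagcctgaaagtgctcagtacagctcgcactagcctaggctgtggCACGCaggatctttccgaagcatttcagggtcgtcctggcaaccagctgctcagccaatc
Nfe2l2 (chr3:81028950-81029249, minus strand): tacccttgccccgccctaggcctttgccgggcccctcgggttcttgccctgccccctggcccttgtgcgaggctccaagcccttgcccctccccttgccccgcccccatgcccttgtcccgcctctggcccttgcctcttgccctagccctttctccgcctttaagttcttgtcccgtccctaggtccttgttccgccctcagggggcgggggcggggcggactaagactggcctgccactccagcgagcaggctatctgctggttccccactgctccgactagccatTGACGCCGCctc
Gclm (chr2:213031885-213032184, plus strand): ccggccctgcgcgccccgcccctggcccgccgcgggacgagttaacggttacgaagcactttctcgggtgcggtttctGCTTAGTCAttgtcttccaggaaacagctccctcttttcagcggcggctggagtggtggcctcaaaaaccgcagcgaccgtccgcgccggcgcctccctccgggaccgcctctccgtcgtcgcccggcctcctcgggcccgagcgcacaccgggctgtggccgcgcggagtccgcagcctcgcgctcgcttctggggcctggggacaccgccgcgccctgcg

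The capitals in the Nqo1 window are a GCGTG on the opposite strand, from base -10 to -6 before the start. Those in the Nfe2l2 window are a TGACNNNGC, which reads TGACGCCGC, at bases 39 to 47 after that internal start. Those in the Gclm window are a TGACNNNGC on the opposite strand, which reads TGACTAAGC, at bases -172 to -164. Over the 9 windows of the 7 genes (Txnrd1 and Ephx1 have 2 each), GCGTG occurred in 4 and TGACNNNGC in 4. Among all 33469 windows of the same length, GCGTG was found in 29.7% and TGACNNNGC in 12.1%. A Txnrd1 window held both motifs, but no match of GCGTG shared bases with a match of TGACNNNGC in any member window. A match of letters is not a measured binding site, and the window does not cover distal elements.

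The values are log2 signals. Arrays of the same group resembled each other closely. Averaged over the other 3 arrays of its group, the correlation of an array with them was 0.992 to 0.997. No 2 of the 40 arrays held identical values. Array medians lay between 3.52 and 3.76, and a probe set near that value gives little signal. The 8 hepatocyte markers were above the array median in every group, with a mean between 13.35 and 14.04, and only 1 of the 4 measured bile duct markers exceeded the median. With TCDD at 19 h the hepatocyte marker Ass1, a urea cycle enzyme, fell in LnC and L-E. In LnA and H/W it was not called, but its TCDD arrays lay below its corn oil arrays there too. They were 13.47 to 13.76 against 13.84 to 14.16 in LnA, and 13.05 to 13.65 against 13.66 to 14.26 in H/W. None of the other hepatocyte markers was called in any strain/line. The mean of the 8 was 13.50 to 13.83 in LnC arrays after TCDD and 13.47 to 13.65 after corn oil. In L-E arrays it was 13.67 to 13.92 after TCDD and 13.61 to 13.81 after corn oil. None of the 22 immune, endothelial and stellate, bile duct or blood markers was called in any strain/line. In bulk liver, fewer cells of a type and less RNA per cell cannot be told apart. The arrays were scanned on 5 days. All LnA and LnC arrays share a day, the 19 h arrays of H/W and L-E lie on 3 days that hold both treatments, and the 3 h arrays have a day of their own.

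Nfe2l2 (1367826_at; GRCr8 chromosome 3, 81001529 to 81031165) encodes NRF2. Its log2 signal in LnA was 11.17, 11.37, 11.93 and 11.62 after TCDD and 10.14, 10.10, 10.42 and 9.91 after corn oil. H/W livers had 11.74, 11.53, 10.85 and 11.61 after TCDD and 9.79, 9.98, 9.88 and 10.25 after corn oil. In every strain/line, each TCDD array lay above each corn oil array. LnC livers had 11.29, 11.77, 11.21 and 11.29 after TCDD and 9.98, 9.89, 9.56 and 9.31 after corn oil. L-E livers had 12.18, 11.18, 12.05 and 12.06 after TCDD and 9.88, 9.57, 9.74 and 9.61 after corn oil. The L-E TCDD array at 11.18 stood apart from the other 3 of its group, and it was still above all L-E corn oil arrays.

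Nfe2l2 rose with TCDD by 1.38 ± 0.18 in LnA, 1.71 ± 0.18 in LnC and 2.17 ± 0.22 in L-E on the log2 scale (SE, limma, n = 4 against 4), which is 2.60-fold, 3.26-fold and 4.49-fold. The limma adjusted p was 0.00954 in LnA, 0.00448 in LnC and 0.0034 in L-E, against the threshold of 0.01. The H/W difference was 1.46 ± 0.20 with an adjusted p of 0.0193 in limma, which missed the threshold. In 1 limma fit over the 8 groups of 19 h, all 4 differences passed, with adjusted p between 6.99e-08 and 1.52e-04. Without any single LnA array the limma call was lost (adjusted p 0.0149 to 0.0327), and without H/W TCDD replicate 3, the array at 10.85, the H/W difference was 1.65 with an adjusted p of 0.0028. The LnC and L-E calls were lost without most single arrays too (adjusted p up to 0.0183 in LnC and 0.0153 in L-E), the exceptions being LnC corn oil replicate 4 and L-E TCDD replicate 2.

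**Figure D1:**
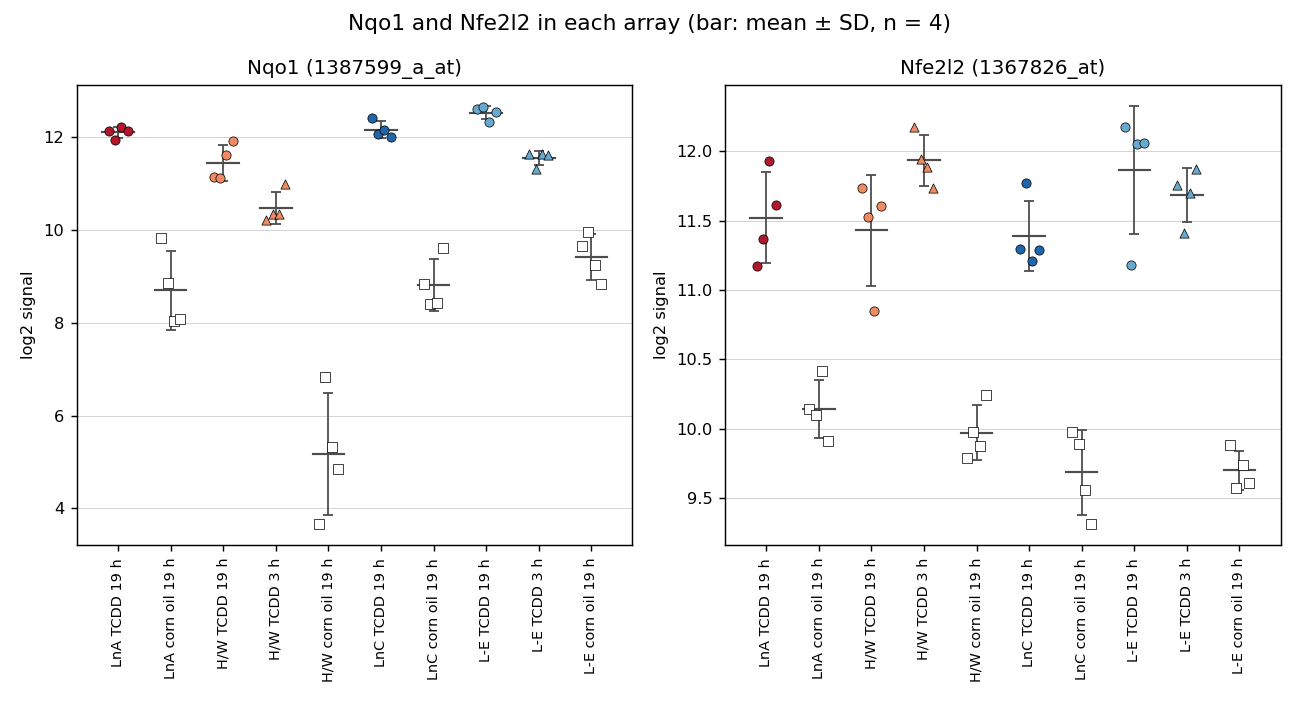
The log2 signal of Nqo1 (left) and Nfe2l2 (right) is plotted for each array in the 10 groups, with filled circles for TCDD at 19 h, filled triangles for TCDD at 3 h and open squares for corn oil; horizontal bars are group means and error bars SD (n = 4). Every TCDD array lies above every corn oil array of its strain/line, and the H/W corn oil arrays lie lowest for Nqo1, between 3.66 and 6.83.

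Keap1 (chromosome 8, 28044555 to 28054042), which encodes the NRF2 inhibitor, was measured by 2 probe sets that differed in signal. The first, 1370066_at, had group means between 8.05 and 8.36 over all 10 groups, and TCDD arrays overlapped corn oil arrays in every strain/line. Its TCDD differences were 0.20, -0.09, -0.07 and 0.16 in LnA, H/W, LnC and L-E, with 95% intervals that stayed between -0.26 and 0.44 (limma, smallest adjusted p = 0.55). The second, 1387810_at, lay near the array median, with values from 2.91 to 5.03.

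Keap1 1387810_at had TCDD values of 3.89, 4.19, 3.83 and 3.86 in LnA, against 3.57, 3.24, 2.91 and 3.33 in corn oil. It had 4.91, 4.89, 4.56 and 4.77 in L-E with TCDD, against 4.25, 4.15, 4.11 and 4.32 in corn oil. In both, the groups did not overlap. The differences were 0.68 ± 0.15 in LnA, 0.77 ± 0.28 in H/W, 0.07 ± 0.10 in LnC and 0.58 ± 0.09 in L-E (SE, limma, n = 4 each; adjusted p 0.0645, 0.364, 1 and 0.0141), and none passed. In L-E it was called with the lowest 40% of probe sets left out (limma adjusted p = 0.00743), with limma's trend (0.00955) and without L-E TCDD replicate 3 (0.00657). All 4 LnA corn oil arrays were below their own array's median, so the size of that difference rests on the low end of the scale.

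Nqo1 (1387599_a_at; chromosome 19, 52205374 to 52220267) encodes NAD(P)H quinone oxidoreductase, which reduces quinones to hydroquinones. In LnA its log2 signal was 12.14, 11.93, 12.21 and 12.12 after TCDD and 9.83, 8.85, 8.04 and 8.07 after corn oil. In H/W it was 11.14, 11.12, 11.61 and 11.92 after TCDD and 3.66, 6.83, 5.32 and 4.84 after corn oil. TCDD arrays lay above corn oil arrays without overlap, and they also spread less. In LnC the signal was 12.41, 12.07, 12.16 and 12.00 after TCDD and 8.83, 8.41, 8.43 and 9.60 after corn oil. In L-E it was 12.61, 12.64, 12.32 and 12.55 after TCDD and 9.66, 9.96, 9.24 and 8.82 after corn oil, again without overlap.

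Nqo1 rose with TCDD by 3.40 ± 0.38 in LnA, 6.29 ± 0.61 in H/W, 3.34 ± 0.27 in LnC and 3.11 ± 0.24 in L-E (log2, SE, limma; adjusted p 0.00667, 0.00382, 0.00144 and 0.00134; n = 4 against 4 in each). These are 10.6-fold, 78-fold, 10.1-fold and 8.62-fold on the linear scale. The H/W corn oil array at 3.66 was not above its own array's median, and the H/W difference within a scan day was 7.49 (1 rat against 1), 5.29 (2 against 2) and 7.08 (1 against 1). With scan day as a block the limma adjusted p was 0.018 in H/W and 0.00357 in L-E, where the difference within a scan day was 2.95 (1 against 1) and 3.16 (3 against 3). Nqo1 was called without any single array of LnC or L-E, but in LnA only without corn oil replicate 1 (adjusted p otherwise up to 0.0246) and in H/W only without corn oil replicate 1 or 2 (otherwise up to 0.021).

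The replicate numbers of LnA paired its arrays by the check given under the processing, though weakly. With the replicate number as a block in LnA, the Nqo1 difference of 3.40 had an adjusted p of 0.0405 and the Nfe2l2 difference of 1.38 an adjusted p of 0.0283 in limma, so that neither passed 0.01; calls over all 15866 probe sets fell to 15, against 124 without the block.

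Gclc (chromosome 8, 87510251 to 87548896) and Gclm (chromosome 2, 213032135 to 213052192) encode the catalytic and the modifier subunit of glutamate-cysteine ligase, the first enzyme of glutathione synthesis. Neither was called with TCDD in any strain/line. Gclc 1370688_at differed by 0.19 ± 0.16 in LnA, 0.21 ± 0.29 in H/W, -0.32 ± 0.17 in LnC and -0.34 ± 0.40 in L-E (SE, limma, n = 4 each), with overlap of the groups in all of them. Gclc 1372523_at gave 0.09, 0.23, -0.65 and -0.44, and in LnC its TCDD arrays (8.24 to 9.06) lay below its corn oil arrays (9.24 to 9.72; limma adjusted p = 0.159). The L-E TCDD arrays spread most, at 9.34, 9.63, 7.78 and 8.54 for 1370688_at, against 9.02, 9.15, 8.96 and 9.53 after corn oil. Both probe sets ordered these 4 TCDD rats alike, since 1372523_at gave 9.04, 9.24, 7.27 and 7.97.

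Gclm 1370030_at was 9.65, 9.14, 9.06 and 8.89 in L-E after TCDD, against 10.16, 9.74, 10.27 and 10.46 after corn oil. In LnC it was 8.78, 9.59, 10.03 and 10.12 after TCDD, against 10.21, 10.88, 10.46 and 10.77 after corn oil. In both, all TCDD arrays were below all corn oil arrays, whereas the groups overlapped in LnA and H/W. The differences were -0.65 ± 0.32 in LnA, -0.41 ± 0.18 in H/W, -0.95 ± 0.31 in LnC and -0.97 ± 0.21 in L-E (SE, limma, n = 4 each; adjusted p 0.533, 0.458, 0.219 and 0.0446). None passed 0.01, although the sign was opposite to that of Nqo1 and Nfe2l2 in all of them.

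Hmox1 (1370080_at; chromosome 19, 13452365 to 13479823) encodes haem oxygenase-1, the inducible enzyme of haem breakdown. In L-E it was 6.79, 7.45, 7.67 and 7.25 after TCDD, against 6.65, 7.15, 6.79 and 6.66 after corn oil. In LnA it was 3.99, 4.36, 5.01 and 4.18 after TCDD, against 5.22, 4.64, 5.56 and 5.24 after corn oil. Arrays of both treatments overlapped in every strain/line. The TCDD differences were -0.78 ± 0.26 in LnA, -0.23 ± 0.29 in H/W, -0.15 ± 0.28 in LnC and 0.48 ± 0.20 in L-E (SE, limma, n = 4 each; adjusted p 0.243, 0.633, 1 and 0.303), and none was called.

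Txnrd1 (chromosome 7, 22717620 to 22802553) encodes cytosolic thioredoxin reductase, a selenoenzyme. Its probe set 1398791_at was 9.74, 9.78, 9.69 and 9.62 in H/W after TCDD, against 9.36, 9.30, 9.45 and 9.20 after corn oil, without overlap. The difference of 0.38 ± 0.06 (SE, limma, n = 4 each) had an adjusted p of 0.0365 and was not called. In LnA, LnC and L-E the differences were 0.26, 0.06 and 0.17, and the second probe set, 1386958_at, gave 0.20, 0.41, 0.14 and 0.17 in LnA, H/W, LnC and L-E. All 8 differences were above 0, the largest interval reaching 0.73, and none passed. Ephx1 (1387669_a_at; chromosome 13, 95246079 to 95275852), which encodes microsomal epoxide hydrolase, differed by 0.41 ± 0.29, 0.05 ± 0.17, -0.44 ± 0.28 and 0.35 ± 0.15 in LnA, H/W, LnC and L-E, with overlap in each. Its LnC TCDD arrays were the most spread, at 10.03, 10.61, 11.38 and 11.10, against 11.12, 11.37, 11.31 and 11.08 after corn oil.

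**Figure D2:**
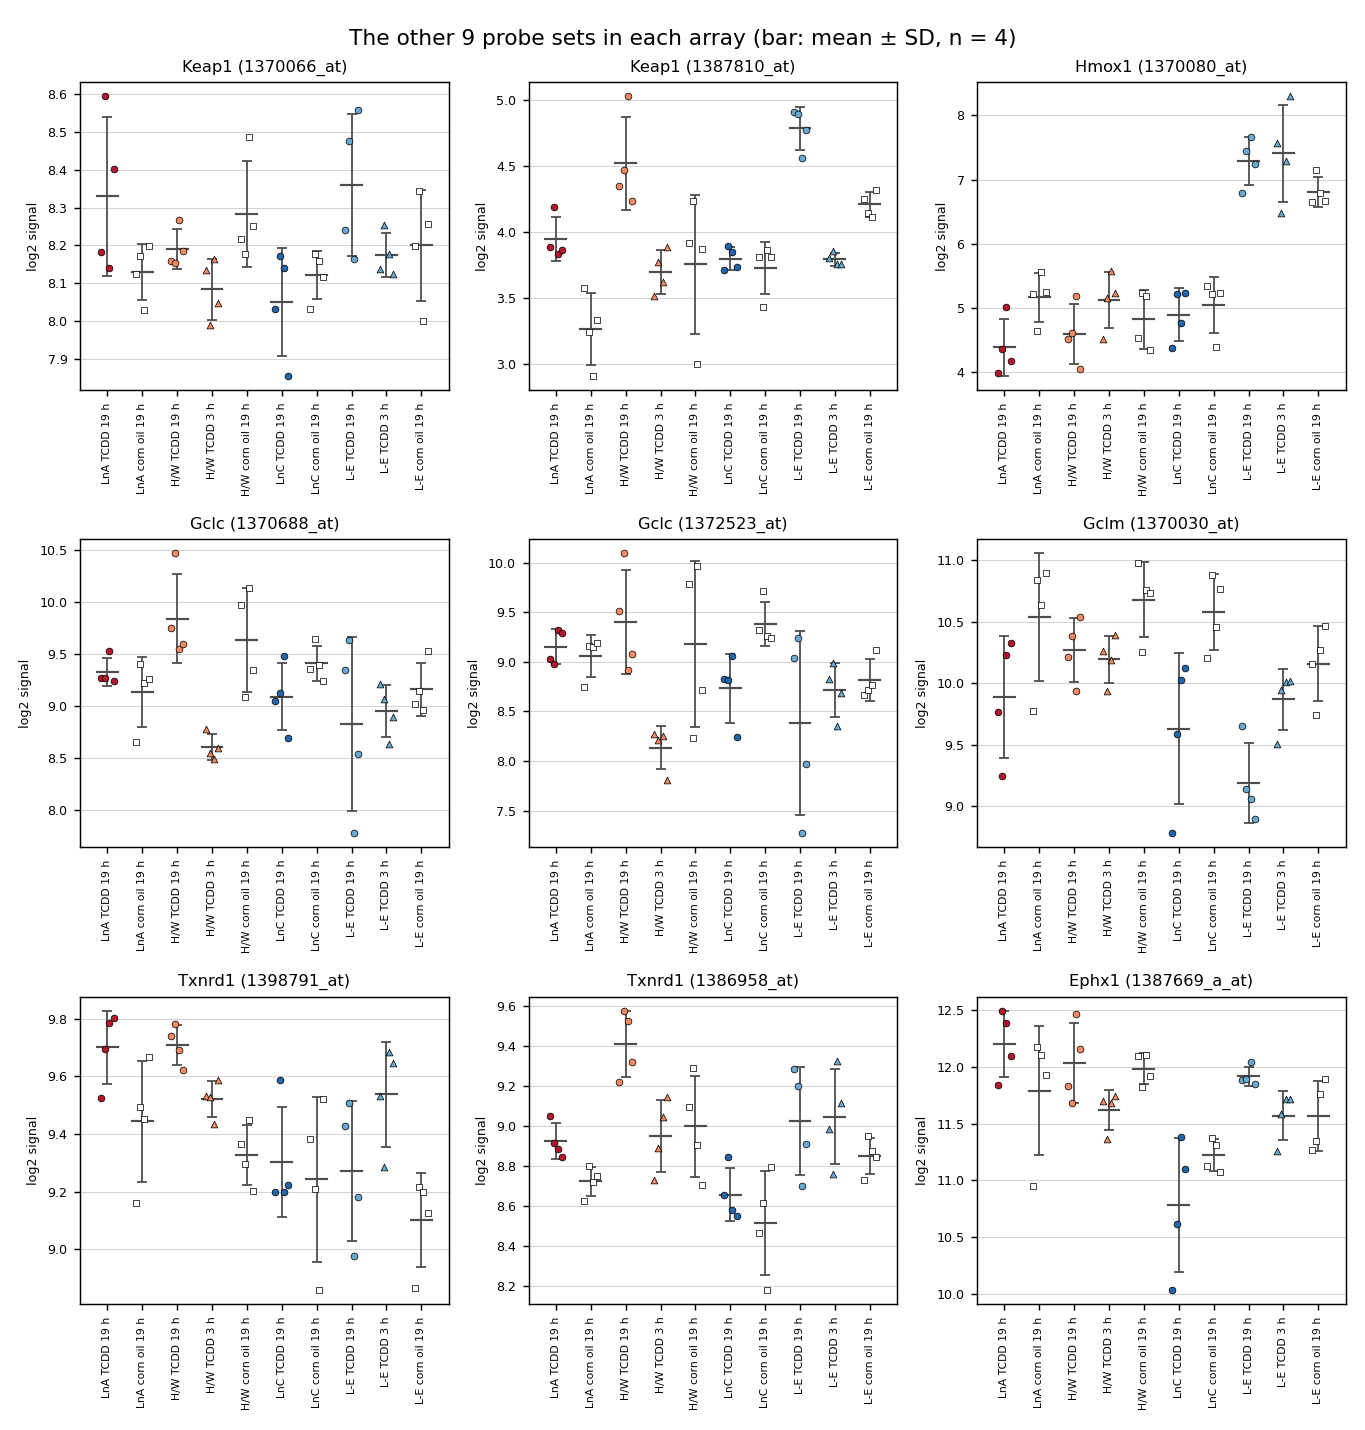
The log2 signal of the other 9 probe sets is plotted for each array in the 10 groups (marks as for Nqo1; bars: mean ± SD, n = 4; each panel has its own scale). Hmox1 in L-E lies at 6.48 or above in all 3 groups and at 5.57 or below in every other group, and Gclm in LnC and L-E lies lower after TCDD than after corn oil.

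**Figure D3:**
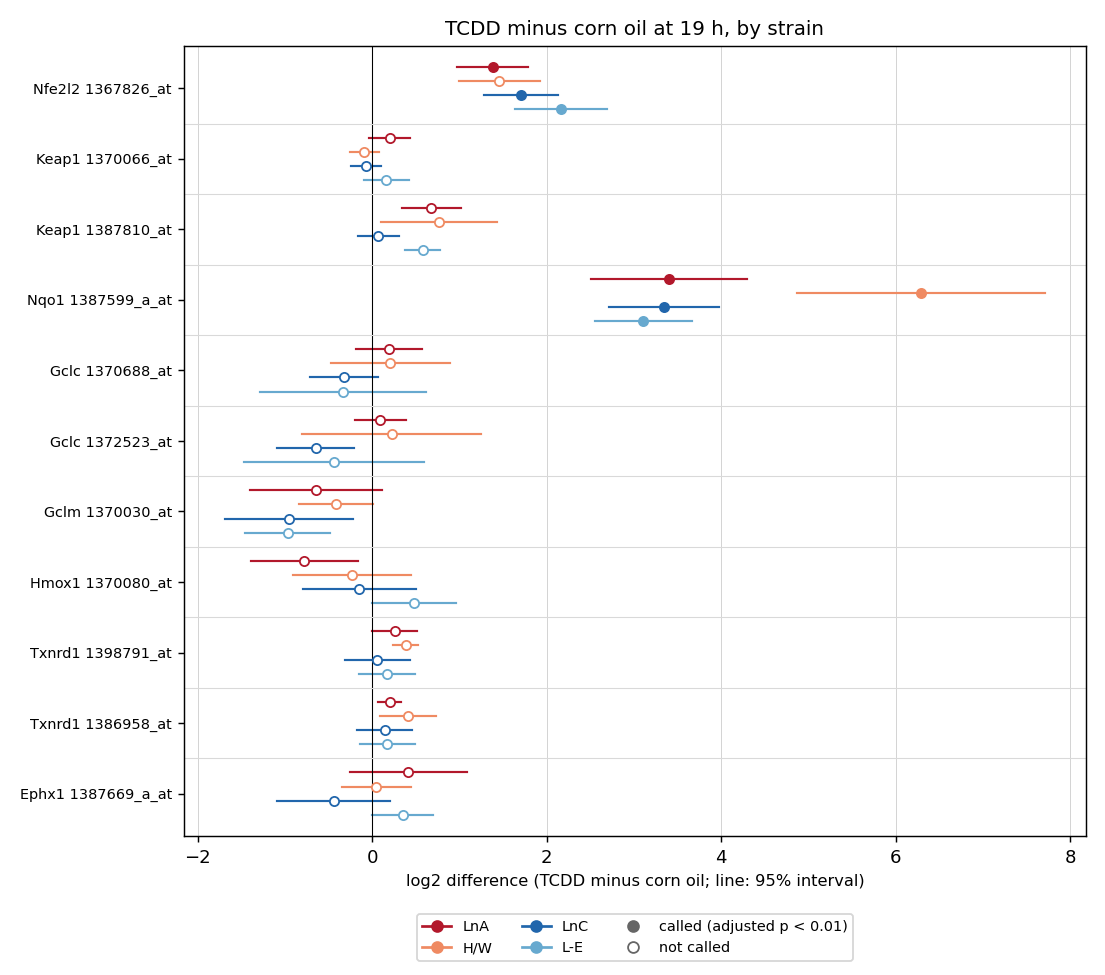
The TCDD minus corn oil difference at 19 h (log2) is plotted for the 11 probe sets in LnA, H/W, LnC and L-E, with its 95% interval; filled points were called at an adjusted p under 0.01. The filled points are Nqo1 in all 4 and Nfe2l2 in LnA, LnC and L-E; the other 9 probe sets have open points only.

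Over the 11 probe sets, 2 rose in LnA, 1 in H/W, 2 in LnC and 2 in L-E, and none fell. Of all probe sets tested, 0.536% were called higher and 0.246% lower in LnA, 0.284% and 0.0819% in H/W, 0.523% and 0.378% in LnC, and 0.775% and 0.901% in L-E. Median centring of the arrays changed the split most in LnA and H/W, to 47 probe sets higher and 8 lower in LnA, with 85 and 39 as deposited, and to 39 higher and 4 lower in H/W, with 45 and 13 as deposited. All calls among the members were of Nqo1 and Nfe2l2. At an adjusted p under 0.05, Nfe2l2 and Txnrd1 1398791_at in H/W, and Gclm (lower) and Keap1 1387810_at in L-E, would be added. Of all 15866 probe sets, 193 in H/W and 827 in L-E passed that looser threshold (limma). Without adjustment, 5, 5, 4 and 4 of the 11 had a limma p under 0.05 in LnA, H/W, LnC and L-E, in either direction. Of all probe sets, 12.3%, 11.1%, 13.0% and 16.8% did.

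Whether the response depended on the strain/line was tested as an interaction. For Nqo1 the H/W response exceeded that of L-E by 3.18 ± 0.69 (log2, SE, limma, 16 arrays; unadjusted p = 4.77e-04), which was not called after adjustment over all probe sets (adjusted p = 0.149). The LnA response differed from that of LnC by 0.06 ± 0.49 (SE), a ratio of 1.04 with a 95% interval from 0.501 to 2.17. Over the resistant against the sensitive collective, the difference was 1.62 ± 0.44 (32 arrays; limma adjusted p = 0.285). The Nqo1 level after TCDD was 12.10 ± 0.12 in LnA, 11.45 ± 0.39 in H/W, 12.16 ± 0.18 in LnC and 12.53 ± 0.14 in L-E (SD, n = 4), so H/W was the lowest of them after TCDD as well as after corn oil.

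The Nfe2l2 response was smaller in H/W than in L-E by -0.71 ± 0.31 and smaller in LnA than in LnC by -0.33 ± 0.26 (log2, SE; limma adjusted p 0.513 and 0.975), neither of which passed. None of the 11 probe sets was called in the 3 interactions (limma), in which 0.0693% (LnA against LnC), 0.0315% (H/W against L-E) and 0.0630% (collectives) of all probe sets were. At an unadjusted p under 0.05 there were 2, 2 and 4 of the 11 in these interactions, beside 4.07%, 9.47% and 7.39% of all probe sets.

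Strains/lines given corn oil were compared in 1 fit of 16 arrays. Nqo1 was 5.16 ± 1.31 in H/W, against 9.42 ± 0.49 in L-E (SD, n = 4 each), a difference of -4.26 ± 0.58 (SE, limma, adjusted p = 0.00112). It was 8.70 ± 0.84 in LnA, which is 3.53 ± 0.58 above H/W (adjusted p = 0.00373), and LnA and LnC (8.82 ± 0.56) differed by -0.12, with a 95% interval from -1.36 to 1.12. The highest H/W corn oil array, at 6.83, was below the lowest array of the other 3, at 8.04. LnA and H/W arrays were scanned on different days, so day and line cannot be told apart there. The macrophage marker Lyz2 was lower in LnA than in H/W by -1.80 (limma adjusted p = 0.00117). It was lower in LnA than in LnC too, by -1.79 (limma adjusted p = 0.00276). The 8 immune cell markers averaged 7.20 to 7.27 in LnA arrays, 7.59 to 7.76 in H/W arrays and 7.61 to 7.97 in LnC arrays. The part of these markers in the Nqo1 difference was not tested. The LnA against H/W call was lost without LnA corn oil replicate 2 (adjusted p = 0.0132). Within a scan day H/W was lower than L-E by -6.00 (1 rat against 1) and -3.26 (2 against 3). In the H/W and L-E arrays alone the Nqo1 adjusted p was 0.0337, and 0.109 with scan day as a block.

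Hmox1 was 4.82 ± 0.46 in H/W and 5.05 ± 0.44 in LnC, against 6.81 ± 0.23 in L-E (SD, n = 4 each). All L-E arrays, from 6.65 to 7.15, were above all arrays of the other 3, the highest of which was 5.56 in LnA. The differences were -1.99 ± 0.26 for H/W against L-E and -1.77 ± 0.26 for LnC against L-E (SE, limma; adjusted p 8.1e-04 and 0.00155). Within a scan day H/W was lower than L-E by -2.12 (1 rat against 1) and -1.66 (2 against 3), and in the H/W and L-E arrays alone the adjusted p was 0.0131, or 0.0163 with scan day as a block. LnC and L-E were scanned on different days, so day and strain cannot be told apart. The 8 measured immune cell markers had a mean log2 signal of 7.59 to 7.76 in H/W, 7.61 to 7.97 in LnC and 7.69 to 8.23 in L-E after corn oil, with all 8 above the array median; their part in the Hmox1 difference was not tested.

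The other 9 probe sets, which include both of Keap1 and of Gclc, were not called in any comparison of strains/lines made after corn oil. LnA against L-E and LnC against H/W were not compared. The members called were 0 of 11 for LnA against LnC (0.378% of all probe sets), 2 for H/W against L-E (0.813%), 1 for LnA against H/W (1.70%) and 1 for LnC against L-E (2.28%). For LnA against LnC, 3 members had an unadjusted p under 0.05 in limma, beside 8.44% of all probe sets.

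**Figure D4:**
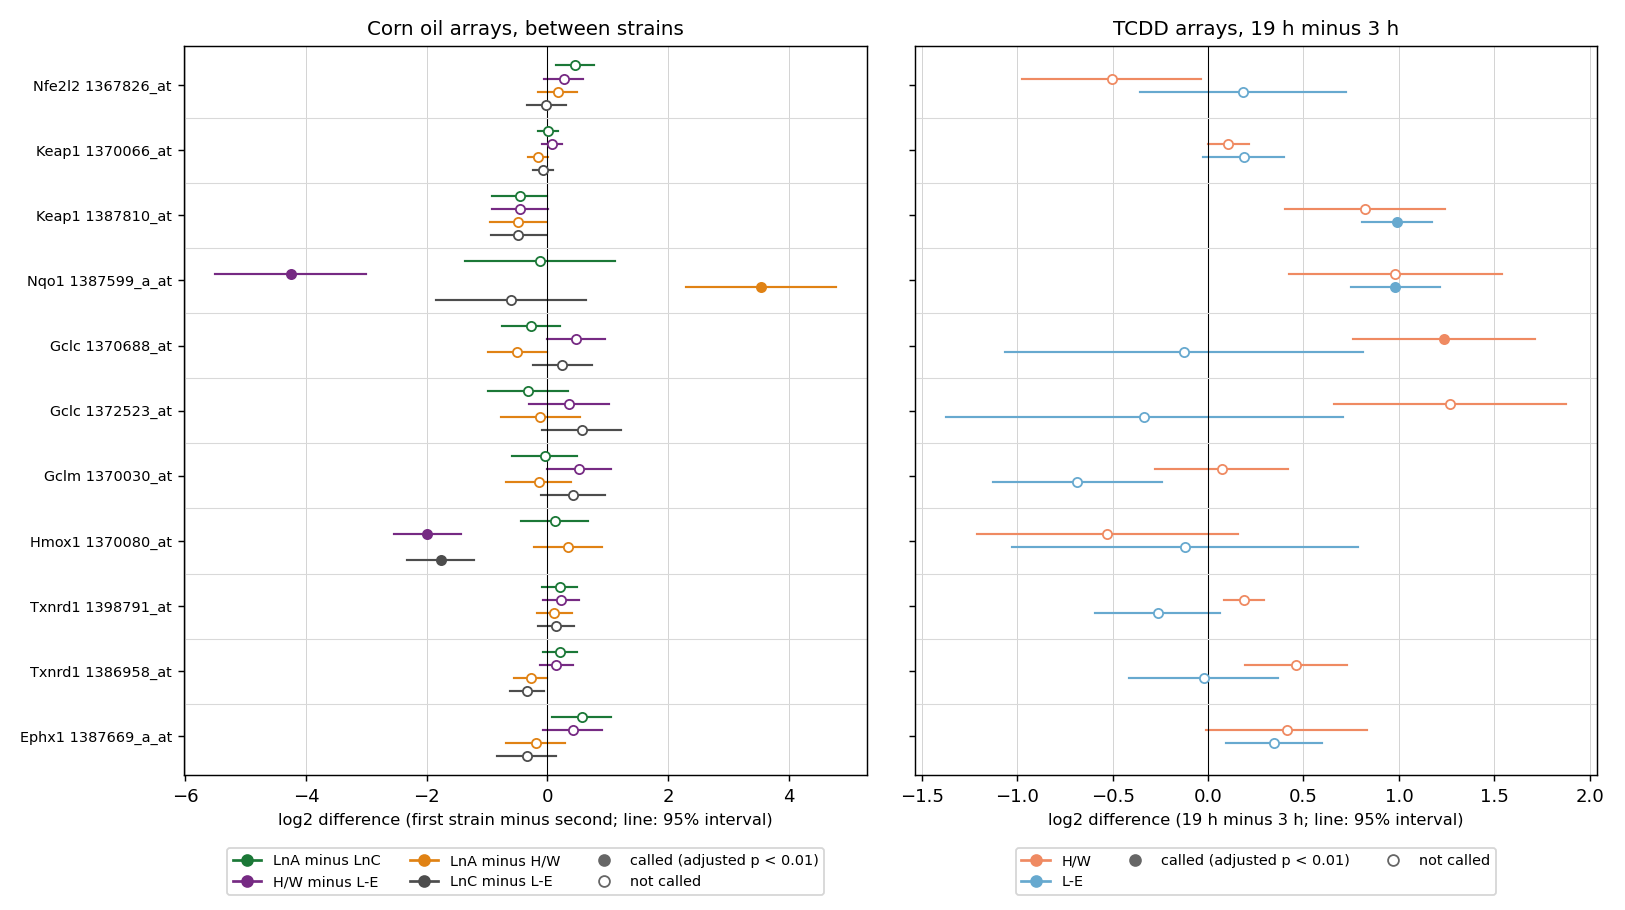
Differences on the log2 scale are plotted for the 11 probe sets between corn oil groups of 2 strains/lines (left) and between TCDD at 19 h and at 3 h (right), each with its 95% interval; filled points were called at an adjusted p under 0.01. On the left the filled points are Nqo1 and Hmox1; on the right they are Gclc 1370688_at in H/W and Nqo1 and Keap1 1387810_at in L-E.

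In the TCDD groups, 19 h was compared with 3 h in H/W and L-E. All 3 h arrays, and no others, were scanned on 1 day, so that time and scan day cannot be told apart, and no 3 h control was analysed here. Nqo1 at 19 h was 11.45 ± 0.39 in H/W, against 10.21, 10.34, 10.34 and 10.98 at 3 h, and the groups did not overlap. In L-E it was 12.53 ± 0.14 at 19 h, against 11.64, 11.31, 11.63 and 11.61 at 3 h, again without overlap. It rose in L-E by 0.98 ± 0.10 (SE, limma, adjusted p = 0.00221) and differed by 0.98 ± 0.24 in H/W, which was not called (adjusted p = 0.0451). The corn oil groups of 19 h had 3.66 to 6.83 in H/W and 8.82 to 9.96 in L-E, all below the 3 h TCDD arrays of the same strain.

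Nfe2l2 did not show that order. It was 11.43 ± 0.40 at 19 h in H/W, against 12.18, 11.94, 11.88 and 11.74 at 3 h, and 11.87 ± 0.46 at 19 h in L-E, against 11.75, 11.41, 11.70 and 11.87 at 3 h (SD, n = 4). The differences of -0.50 ± 0.20 and 0.18 ± 0.23 were not called (SE; limma adjusted p 0.2 and 0.581). The 3 h TCDD arrays lay above the 19 h corn oil arrays of their strain, which ended at 10.25 in H/W and 9.88 in L-E.

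Gclc 1370688_at was 9.75, 10.47, 9.55 and 9.60 in H/W at 19 h, against 8.78, 8.55, 8.49 and 8.59 at 3 h, without overlap. It rose by 1.24 ± 0.20 (SE, limma, adjusted p = 0.00998), just inside the threshold, and the second Gclc probe set gave 1.27 ± 0.26 (adjusted p = 0.0238). The H/W corn oil arrays of 19 h were 9.97, 9.09, 10.13 and 9.35, so the 3 h TCDD arrays were the low ones. Without any single H/W array but TCDD 19 h replicate 2 the call was lost (limma adjusted p up to 0.0321). In L-E the same probe set differed by -0.13 ± 0.40. Keap1 1387810_at rose in L-E by 0.99 ± 0.08 (adjusted p = 9.84e-04), with 3.80, 3.86, 3.76 and 3.75 at 3 h, values close to the array median; 1370066_at of the same gene differed by 0.19.

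At 3 h, H/W and L-E TCDD arrays shared a scan day. Hmox1 was 4.52, 5.15, 5.57 and 5.24 in H/W, against 7.57, 6.48, 7.28 and 8.30 in L-E, and Nqo1 was lower in H/W by -1.08 ± 0.17; neither group pair overlapped, and neither was called (limma adjusted p 0.0209 and 0.0157). Beside them, the immune cell marker Csf1r was lower in H/W by -0.96 and the stellate cell marker Dcn by -2.13 (limma adjusted p 0.00488 and 0.00652). The mean of the 8 immune cell markers was 7.37 to 7.91 in H/W and 8.18 to 8.79 in L-E, and that of the 7 endothelial and stellate cell markers 5.60 to 5.83 in H/W and 6.06 to 6.32 in L-E; their part in the Hmox1 and Nqo1 differences was not tested. Of the 11 probe sets, 1 was called in H/W and 2 in L-E between the times, where 4.25% and 3.44% of all probe sets were, and none between the strains at 3 h, where 1.77% were (limma). Between the strains at 3 h, 4 of the 11 had an unadjusted p under 0.05, beside 39.3% of all probe sets, so the members did not exceed the background there. Between the times, 7 of the 11 had one in H/W and 4 in L-E (limma), beside 21.0% and 23.0% of all probe sets.

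The genes around the members were read from 4 lists, 1 probe set per gene. Of all 10411 genes, 0.912% were called with TCDD in LnA, 0.394% in H/W, 1.05% in LnC and 1.86% in L-E, counting both directions. Of the AHR-inducible genes 7 of 10 were measured, and 5 rose with TCDD in LnA, 4 in H/W, 6 in LnC and 5 in L-E, with none lower. Aldh3a1, an aldehyde dehydrogenase, rose by 9.45, 9.83, 10.36 and 11.14 in LnA, H/W, LnC and L-E. Cyp1b1, a cytochrome P450, rose by 7.43, 7.87, 8.85 and 9.49. Both started from the low end of the scale: of the 16 corn oil arrays, Aldh3a1 was above the array median in 1, in H/W, and Cyp1b1 in 3 of H/W, 2 of LnC and 1 of L-E, so the sizes of these differences rest on signals near or below that median and are not set against those of Nqo1. Tiparp, an ADP-ribosyltransferase that acts back on the AHR, rose by 3.08, 4.37, 4.05 and 4.32. Cyp1a2 rose by 1.38, 1.30, 1.30 and 1.27, and Cyp1a1 by 8.73 in LnA, 9.45 in LnC and 10.55 in L-E, with 10.47 and an adjusted p of 0.0155 (limma) in H/W; its corn oil arrays, from 2.13 to 8.60, also reached below the array median in every strain/line. Ahr itself, named after its value was seen, differed by 0.63, 0.48, 0.91 and 1.48 in LnA, H/W, LnC and L-E (limma adjusted p 0.32, 0.594, 4.98e-04 and 0.105). It was called in LnC, where all 8 arrays, from 3.03 to 3.12 after TCDD and from 2.04 to 2.29 after corn oil, lay below the array median.

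Of the 32 of 43 other NRF2 targets that were measured, 1 rose in LnA and none was called in H/W, LnC or L-E. The share of all 10411 genes called was 0.912%, 0.394%, 1.05% and 1.86% in LnA, H/W, LnC and L-E. Their median difference was 0.11, 0.01, 0.10 and 0.16 in LnA, H/W, LnC and L-E, where the median over all genes was -0.01, -0.04, 0.00 and 0.01. The gene called in LnA was Gsta3, a glutathione S-transferase named here after its value was seen, with a difference of 3.11 (limma adjusted p = 0.00899), from 5.41 to 7.14 after TCDD and from 3.04 to 3.49, below the array median, after corn oil. It was also the only listed gene called in an interaction, LnA exceeding LnC by 2.98 (adjusted p = 0.00891). Targets that were not called could still differ. Gsta4 was 11.38 to 11.81 after TCDD and 10.86 to 11.07 after corn oil in LnA. It was 11.44 to 11.74 against 10.40 to 10.99 in H/W. In LnC it was 11.41 to 11.86 against 10.85 to 11.08, and in L-E 11.33 to 11.62 against 10.66 to 10.92. Tkt went the other way in H/W, at 9.33 to 9.79 against 9.86 to 10.59. Both were named after their values were seen. Of the 10 of 13 measured NRF2 regulators none was called with TCDD, their medians lying between -0.06 and 0.06. Of the 15 relatives of the members, such as Nqo2, Hmox2 and Txnrd2, all were measured and 1 was called, Gpx1 (glutathione peroxidase), which fell in L-E by 0.63 (limma adjusted p = 0.0034); it differed by -0.38, -0.77 and -0.65 in LnA, H/W and LnC (0.442, 0.018 and 0.0339), and it too was named after its value was seen. The number with an unadjusted p under 0.05 in LnA, H/W, LnC and L-E was 15, 15, 9 and 11 of the 32 other targets, 2, 4, 2 and 4 of the 10 regulators, and 3, 2, 4 and 5 of the 15 relatives, beside 14.3%, 12.2%, 15.0% and 19.0% of all 10411 genes.

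**Figure D5:**
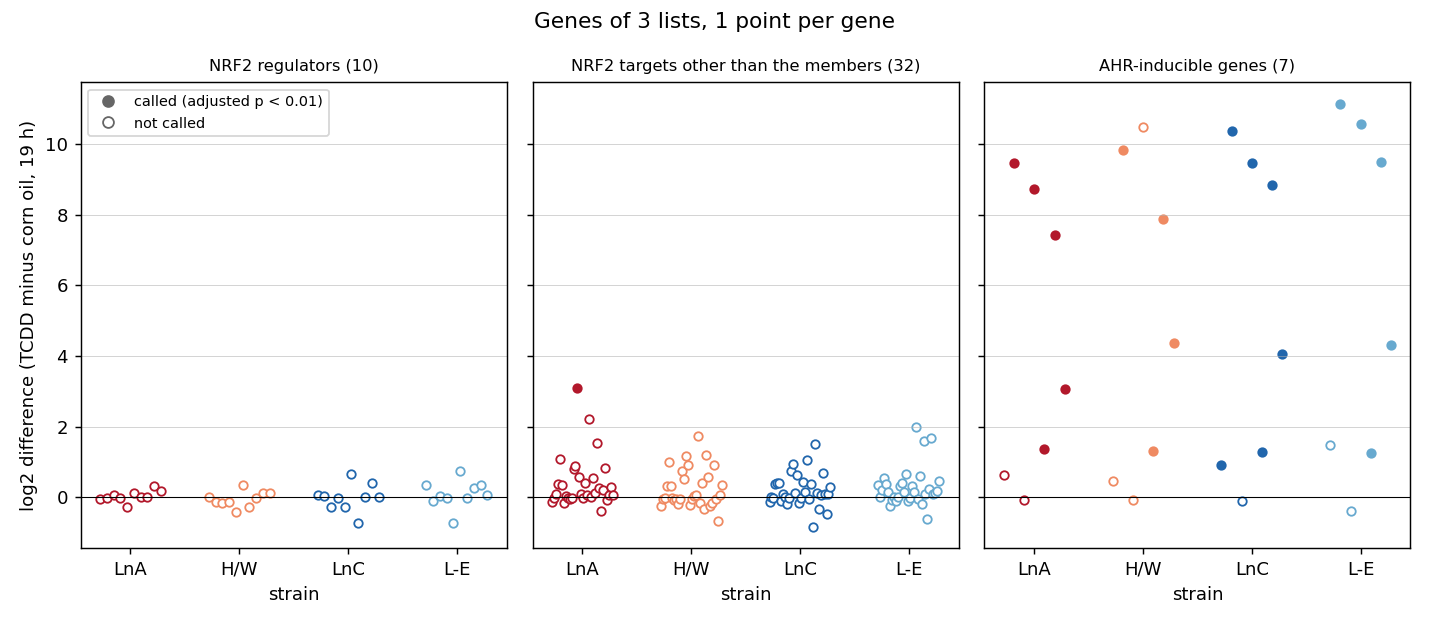
The TCDD minus corn oil difference at 19 h (log2) is plotted for each measured gene of 3 lists in LnA, H/W, LnC and L-E, with filled points for genes called at an adjusted p under 0.01. Among the 32 other NRF2 targets the filled point is Gsta3 in LnA, at 3.11; the highest points of the AHR-inducible genes, up to 11.14, and that of Gsta3 start from corn oil signals near or below the array median.

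Between 19 h and 3 h of TCDD, times that lie on different scan days, 4 of the 32 other NRF2 targets were higher and 1 lower in H/W, and 2 higher and 3 lower in L-E, where 4.82% and 3.84% of all 10411 genes were called. Gsr, glutathione reductase, was higher at 19 h by 1.14 in H/W and 0.62 in L-E, Gsta4 by 0.75 and 0.56, and Taldo1, of the pentose phosphate pathway, was lower by -0.46 and -0.52. The others were Me1 (2.94) and Prdx6 (0.69) in H/W, and Tkt (-0.70) and Srxn1 (-2.07) in L-E, all named after their values were seen. At 3 h, Pgd, Taldo1, Me1 and Prdx6 of this list were lower in H/W than in L-E, by -1.41, -0.57, -3.97 and -0.36. No other of the 32 was called there, where 1.99% of all 10411 genes were. After corn oil at 19 h their means were 8.72, 9.34, 6.93 and 10.59 in H/W and 8.93, 9.68, 8.70 and 11.04 in L-E. None of these was called between the 2 strains after corn oil, and no 3 h control was analysed here. Of the AHR-inducible genes, the same 4 were higher at 19 h in both strains: Cyp1a1, Cyp1a2, Cyp1b1 and Aldh3a1. The hepatocyte marker Ass1 was lower at 19 h than at 3 h by -0.85 in H/W and -1.10 in L-E. Cps1, also of the urea cycle, was lower by -0.78 in L-E, and no other of the 8 hepatocyte markers was called between the times. The mean of the 8 was 13.63 to 13.75 at 19 h and 13.78 to 13.83 at 3 h in H/W arrays. In L-E arrays it was 13.67 to 13.92 at 19 h and 13.88 to 14.04 at 3 h. The part of these markers in the calls between the times was not tested.

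The genes whose 10 group means followed Nqo1 most closely, among 1442 genes with group means spanning at least 1 log2 unit, were Perp, Plpp5, Mpdz, Csk and Kctd2, with Pearson's r from 0.913 to 0.959 over the 10 group means and from 0.781 to 0.884 over the 40 arrays. All 5 had their lowest mean in the H/W corn oil group. Nqo1 itself was lowest there and the genes were chosen by likeness to it, so this is not a separate result. Around Txnrd1 1398791_at the closest were Htatip2, Tmem69, Slc17a1, Akr7a3 and Aldh5a1, with r from 0.781 to 0.866 over the group means and from 0.318 to 0.711 over the arrays. Among the members, Nqo1 group means had r = 0.775 with Nfe2l2 and -0.821 with Gclm, and the 2 Gclc probe sets r = 0.92 with each other. These values describe 10 points that share strains, scan days and the TCDD split, and no test was made of them.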

How the data were processed

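Liver total RNA of 40 rats was measured on 40 Affymetrix RAE230A arrays. The deposited table holds a log2 signal for each probe set; per the submitters' processing notes, the authors used R 2.3.1, affy 1.10.0 and GCRMA 2.4.1. The study's methods describe RMA with an Entrez probe map, which was not repeated. Other deposited text (scanner settings per array, with no log2 values) gave the scan days. The number of arrays limits the precision.

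Groups came from the repository's sample labels. Of 15923 probe sets, 57 controls were left out; 12783 of the other 15866 have 1 symbol, 312 have several and 2771 none. Coordinates and promoters are RefSeq's (GRCr8), matched by Entrez ID or symbol. R 4.3.3 with limma 3.58.1 compared TCDD with corn oil in each strain/line (8 arrays), responses between strains/lines (16 or 32 arrays), corn oil groups (16 arrays) and the TCDD groups of H/W and L-E (8 arrays per comparison), with p adjusted over all 15866 probe sets (Benjamini-Hochberg); an adjusted p under 0.01, as in the study's methods, was called. The scripts were tested on simulated data.

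Same-numbered arrays were checked for pairing by the correlation of their deviations from group means (3127 probe sets with a variance above 0.1). All correlations exceeded 0.1 in 1 of 11 pairs of groups, LnA TCDD with LnA corn oil (0.100 to 0.132, with 2 of 4 arrays best with their own number); nothing in the labels gives a source of this pairing.

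Members and gene lists were chosen with earlier results of these data known. A list gene was named where called in at least 2 strains/lines; the 5 genes most like Nqo1 and Txnrd1 were named by Pearson's r. Alternatives were 1 probe set per gene, median centring, quantile normalization, a filter on the lowest 40%, array weights, limma's trend, a block for the replicate number or for scan day, all 8 groups in 1 fit, and each array left out in turn.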

Additional observations from a re-analysis of the deposited data

Results flagged for a closer look

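In 13 of 110 groups of 4 arrays (11 probe sets in 10 groups), the highest or lowest array stood farther from the other 3 than Dixon's 95% critical value allows; chance gives about 1 in 20 groups. For Nqo1 these were H/W TCDD 3 h replicate 4, at 10.98 with the others at 10.21 to 10.34, and L-E TCDD 3 h replicate 2, at 11.31 with the others at 11.61 to 11.64. For Nfe2l2 they were LnC TCDD replicate 2, at 11.77 with the others at 11.21 to 11.29, and L-E TCDD replicate 2, at 11.18 with the others at 12.05 to 12.18. LnC TCDD replicate 2 was also high for Txnrd1 1398791_at, at 9.59 with the others at 9.20 to 9.22. For Keap1 1387810_at they were LnA TCDD replicate 2 (4.19) and LnC corn oil replicate 2 (3.43), both close to the array median.

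For Gclc they were LnA TCDD replicate 3 at 9.53 (1370688_at), and H/W TCDD 3 h replicate 4 at 7.81 and LnA corn oil replicate 1 at 8.74 (1372523_at). Gclm was low in L-E TCDD 3 h replicate 1, at 9.50 with the others at 9.95 to 10.02. Hmox1 was low in LnC corn oil replicate 3, at 4.39 with the others at 5.22 to 5.34. Ephx1 was low in H/W TCDD 3 h replicate 2, at 11.36 with the others at 11.68 to 11.74.

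None of the 11 probe sets had an interaction with an adjusted p under 0.01 in limma, and none had all arrays of 1 strain/line moving up and all of its counterpart moving down with TCDD.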

How the results depend on the processing

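Of 154 member differences (11 probe sets in 14 comparisons), 14 were called, and none of these changed sign under any alternative run; among those not called, 30 changed sign under at least 1. Calls were less stable than directions. The members called with TCDD in LnA numbered 0 after quantile normalization or median centring, with 2 as deposited. In H/W, with 1 as deposited, there were 0 after quantile normalization or with scan day as a block, 2 with the lowest 40% left out, with limma's trend or in 1 fit over 8 groups, and 3 with array weights. In L-E, with 2 as deposited, there were 3 with the lowest 40% left out or with limma's trend, Keap1 1387810_at being added. Between H/W and L-E corn oil arrays 0 of 2 stayed called in those arrays alone, with or without scan day as a block, alternatives chosen after seeing the data. Array weights gave 2 for LnA against H/W and 2 for LnC against L-E after corn oil, with 1 as deposited in each, 3 for H/W at 19 h against 3 h and 1 for H/W against L-E at 3 h. Between the times, H/W had 0 after quantile normalization or median centring, and L-E had 1 with 1 probe set per gene. With the lowest 40% left out 1 was called between the strains at 3 h. With the replicate number as a block (arrays that share only a number, except in LnA), 0 members were called with TCDD in LnA, H/W, LnC and L-E, between the times in H/W and L-E, and for LnA against H/W after corn oil; it changed no other count of members. Without 1 array the counts ran from 0 to 1 in LnA and H/W, 1 to 2 in LnC and L-E, 0 to 1 for LnA against H/W after corn oil, 0 to 1 between times in H/W, and 0 to 1 between the strains at 3 h. The share of all probe sets called under each alternative is not printed beside these counts. They therefore describe how stable the calls were and are not read as a result about the members. The cause of these changes was not tested. Signals near the array median (3.52 to 3.76) limit Keap1 1387810_at, Nqo1 in H/W after corn oil, Ahr, Gsta3, and Aldh3a1, Cyp1b1 and Cyp1a1 after corn oil.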
